A study of Mus musculus with 12 samples.

Results

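Fatty acid uptake and oxidation is followed here through 35 genes, taken by name from a written list, out of the 20775 genes in each of the 2 deposited tables. At E10.5, RNA was sequenced from hearts of Tnnt-Cre; Med30 f/f embryos (cKO, n = 3 samples) and of Cre-negative Med30 f/f littermates (Ctrl, n = 3 samples). In adults aged 3 months, RNA was sequenced from isolated cardiomyocytes of αMHC-MerCreMer; Med30 f/f mice (icKO, n = 3 samples) and of Med30 f/f mice without Cre (Ctrl, n = 3 samples), 4 weeks after tamoxifen, which both groups received. All mice were labelled C57BL/6, and the labels call both control groups wild type although their Med30 alleles were floxed. The floxed line came from 1 targeted embryonic stem cell clone, its first Med30 exon is flanked by loxP sites, and both Cre transgenes act in cardiomyocytes, so that other cells of the heart keep Med30. No sequenced group carried Cre without floxed alleles, and in these RNA data an effect of Cre cannot be told apart from the loss of Med30. The paper reports that tamoxifen caused neither deaths nor heart dysfunction in αMHC-MerCreMer mice lacking floxed alleles, but such mice are not among these samples. Whether a sample is 1 animal or a pool is not given in the sources used here, so p values measure the spread between these samples.

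The adult heart draws most of its ATP from long-chain fatty acids. Lipoprotein lipase frees them at the vessel wall, CD36 and fatty acid transport proteins carry them into the cell, fatty acid binding proteins hold them in the cytosol and acyl-CoA synthetases activate them. The carnitine shuttle then brings the acyl groups into the mitochondrial matrix, where each turn of β-oxidation shortens the chain by an acetyl-CoA and passes electrons to the respiratory chain. The embryonic heart relies far more on glucose, and the nuclear receptors PPARα and ERRα with their coactivator PGC-1α are known for raising these genes around birth. MED30 is a core subunit of Mediator, the complex that links transcription factors to RNA polymerase II.

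The deposited unit is RPKM, in which read counts are divided by gene length and by library size. Med30 itself had 10.6, 13.3 and 11.3 RPKM in the E10.5 Ctrl samples and 1.38, 2.02 and 1.004 in the cKO samples. In adults it had 7.66, 7.45 and 7.66 RPKM in Ctrl and 3.81, 3.16 and 1.82 in icKO cardiomyocytes. Every knockout sample lay below every Ctrl sample at both stages, and Med30 passed the test at both (limma, adjusted p = 0.000367 at E10.5 and 0.000403 at 4 weeks). From the spacing of low values, the libraries held about 11.9 to 19.9 M reads, and 3 reads on a 2 kb transcript correspond to 0.0752 to 0.126 RPKM. All 8 cardiomyocyte markers fixed for the check were present at a mean above 1 RPKM in every group. Their summed RPKM was 4150 to 6746 in E10.5 Ctrl, 2982 to 3634 in cKO, 19450 to 20270 in adult Ctrl and 7849 to 10220 in icKO libraries. Markers of other cells were present too: the summed RPKM of 8 fibroblast markers was 5.03 to 8.39 in adult Ctrl and 60.4 to 87.5 in icKO libraries. The 6 adipocyte markers were at or near 0 at both stages, with a summed RPKM of at most 0.204 in any library, and Lep was at 0 in all 12.

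In adult icKO cardiomyocytes, most of the 35 genes fell, with falls at nearly every step from the vessel wall to the respiratory chain. Genes were compared with limma on log2(RPKM + 0.1), over all genes with a mean RPKM above 1, with Benjamini-Hochberg adjustment, and a gene passed at an adjusted p under 0.05. Errors of log2 fold changes are standard errors (SE) from that model. On this scale the changes of genes with low RPKM are understated. At 4 weeks, 30 of the 35 genes passed as lower (85.7%), against 18.1% of the 9517 genes tested. Among these, 18 were also beyond a log2 fold change of 1 (51.4%), against 8.45% of all genes. A single gene, Ucp2, passed as higher, where 60.6% of all genes passed as higher and 28.0% were also beyond 1. The 35 genes were chosen with earlier results of these data known, so shares of members against all genes are a description and not a test. Fabp4, Cpt1a, Acadl and Acot13 did not pass. The median log2 fold change of the 35 genes was −1.01. In bulk samples, fewer cells of a type and less RNA per cell cannot be told apart. The 8 cardiomyocyte markers had a median log2 fold change of −0.99 in the same comparison, 6 of them passing as lower and 2 as higher, and their part in the result was not tested.

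The scaling of the adult libraries bears on every adult value. Over all genes tested, the median log2 fold change was 0.57 with RPKM as deposited and 0.01 after median-ratio scaling, which sets the typical gene of each library to the same level. Over all genes, 804 were lower and 2668 higher beyond a log2 fold change of 1 as deposited, and 1511 lower and 1053 higher after median-ratio scaling. Under median-ratio scaling 33 of the 35 genes passed as lower (94.3%), against 34.6% of all genes, and 28 were beyond 1 (80.0%), against 15.9%. The 3 genes gained were Cpt1a, Acadl and Acot13, and the median of the 35 genes became −1.58. The 20 most abundant genes took 24.2% to 24.8% of the summed RPKM in Ctrl and 10.7% to 12.2% in icKO libraries. Values below are those of the deposited RPKM unless another scaling is named.

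**Figure D1:**
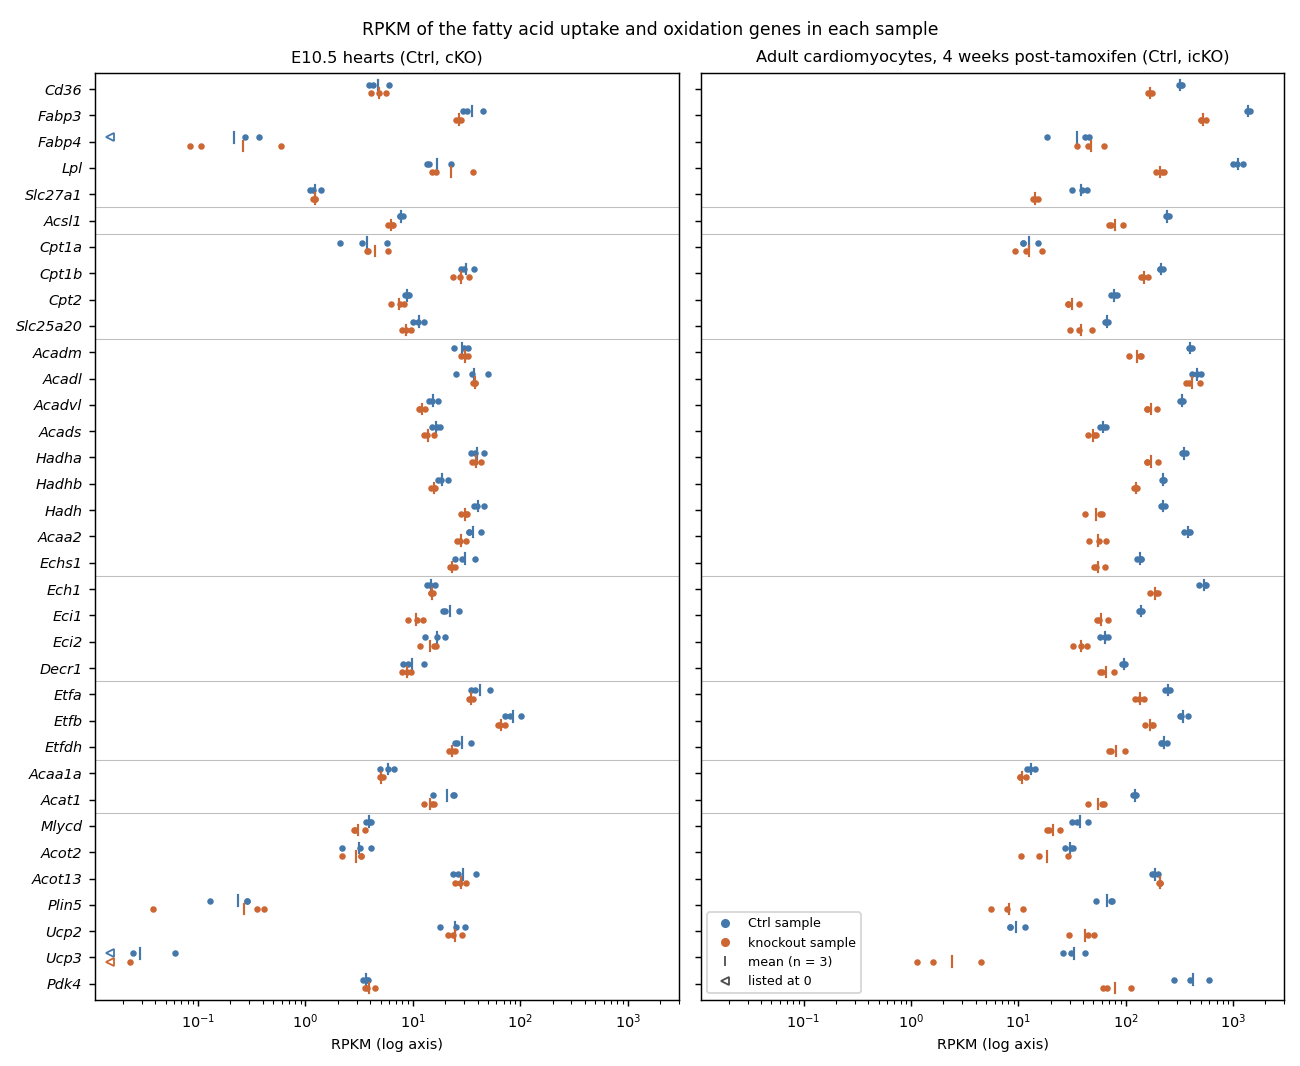
RPKM of each of the 35 genes in each of the 12 samples, on a log axis, with E10.5 hearts on the left and adult cardiomyocytes on the right. Points are samples, vertical ticks are means of 3 samples, open triangles mark a gene listed at 0 in at least 1 sample, and grey lines separate the roles. In adults the Ctrl and knockout points separate for most genes, with Ucp2 the other way round, while at E10.5 they lie close together.

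Of the 5 uptake genes 4 passed as lower, and the fall was largest for Lpl, lipoprotein lipase (chromosome 8 of GRCm38, 68880491 to 68907448). Lpl had 1230, 1088 and 1004 RPKM in adult Ctrl and 190, 215 and 225 in icKO cardiomyocytes, so that no sample of one group reached the other. Its mean fell by 81.0%, with a log2 fold change of −2.40 (SE 0.0994, adjusted p = 2.64e-07). Fabp3, the heart fatty acid binding protein, was the most abundant of the 35 genes in Ctrl cardiomyocytes, at 1427, 1354 and 1371 RPKM, and had 506, 563 and 504 RPKM in icKO. It fell by 1.40 on the log2 scale (SE 0.0767, adjusted p = 7.44e-07). Slc27a1, which encodes the fatty acid transport protein FATP1, fell by a similar amount, from 37.9 ± 5.96 to 14.4 ± 0.716 RPKM (SD, n = 3). Cd36, the membrane receptor for long-chain fatty acids, had 330, 314 and 323 RPKM in Ctrl and 159, 176 and 168 in icKO. The log2 fold change of Cd36 was −0.94 (SE 0.0709, adjusted p = 3.51e-06), and its groups did not overlap. Fabp3 overlaps the coding genes Gm10570 and Zcchc17 in the annotation.

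Fabp4 was the uptake gene that did not pass. It encodes the fatty acid binding protein of adipocytes and of capillary endothelium, and had 18.3, 41.7 and 45.3 RPKM in Ctrl and 35.2, 44.1 and 62.0 in icKO cardiomyocytes. The groups overlapped, and the log2 fold change of 0.49 (adjusted p = 0.198) became −0.07 after median-ratio scaling. Ctrl replicate 1, the lowest library for Fabp4, was also the lowest for the summed RPKM of 8 endothelial markers (10.54, against 20.9 and 30.6 in the other Ctrl libraries), and icKO replicate 3 was the highest for both (54.8, against 29.7 and 28.2). The part of endothelial RNA in the Fabp4 values was not tested.

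Acsl1, the main cardiac long-chain acyl-CoA synthetase, commits fatty acids to oxidation by joining them to coenzyme A. It had 252, 244 and 237 RPKM in Ctrl and 72.9, 94.7 and 70.5 in icKO cardiomyocytes. All icKO samples were below all Ctrl samples, and Acsl1 fell by 1.63 on the log2 scale (SE 0.112, adjusted p = 2.14e-06).

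Of the 4 genes of the carnitine shuttle, 3 passed as lower. Cpt1b, the muscle form of carnitine palmitoyltransferase 1 on the outer membrane, had 208, 220 and 206 RPKM in Ctrl and 144, 161 and 139 in icKO. It fell by 0.52 on the log2 scale (SE 0.0795, adjusted p = 0.000283), and its mean fell by 30.0%. Its annotated span overlaps another coding gene, Gm44502, and whether counting separated their reads is not given in the sources used here. Cpt1a, the liver form of the same enzyme, had 11.0, 15.3 and 11.1 RPKM in Ctrl and 11.7, 16.5 and 9.38 in icKO, with overlapping groups. The log2 fold change of Cpt1a was −0.02 (adjusted p = 0.941), against −0.58 after median-ratio scaling (adjusted p = 0.0281). Slc25a20, the carnitine-acylcarnitine translocase of the inner membrane, fell from 66.2 ± 2.40 to 38.6 ± 9.03 RPKM (SD, n = 3). Cpt2, which frees the acyl-CoA in the matrix, had 82.9, 78.8 and 72.2 RPKM in Ctrl and 28.7, 36.6 and 29.3 in icKO. Its fall of 1.31 on the log2 scale (SE 0.109, adjusted p = 6.04e-06) was the largest of the 4 shuttle genes.

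In the β-oxidation spiral, 8 of 9 genes passed as lower and 5 were beyond a log2 fold change of 1, with a range from −2.77 to −0.16. The 4 acyl-CoA dehydrogenases, which take the first step on chains of different length, differed widely. Acadm, the medium-chain enzyme (chromosome 3 of GRCm38, 153922357 to 153944632), had 396, 415 and 387 RPKM in Ctrl and 106, 136 and 139 in icKO. It fell by 1.66 on the log2 scale (SE 0.106, adjusted p = 1.52e-06), while Acadvl, the very-long-chain enzyme, fell by 0.97 and Acads, the short-chain enzyme, by 0.32 (adjusted p = 0.0122). Acadl, the long-chain enzyme, did not pass: it had 497, 459 and 415 RPKM in Ctrl and 384, 488 and 364 in icKO. The groups of Acadl overlapped, and its log2 fold change was −0.16 (SE 0.1202, adjusted p = 0.253), −0.72 after median-ratio scaling (adjusted p = 0.000529) and 0.10 after quantile normalization. The call of Acads was lost without Ctrl replicate 2 (adjusted p = 0.0528). Acadvl overlaps the coding gene Dvl2 in the annotation.

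Of the 28 genes with a RefSeq promoter window, only Acadm held a match to the motifs named below. The window spans 250 bases before to 50 after the annotated start. Windows were searched on both strands for AAGGTCA, the half-site letters known for ERR binding, for the longer TCAAGGTCA that contains it, and for a DR1, a pair of AGGTCA half-sites in 1 orientation with 1 base between. AAGGTCA was in 1 of the 32 windows of these genes and in 4.72% of all 32851 windows. TCAAGGTCA was in 0.423% of all windows and the DR1 in 0.0396%. The AGGTCA half-site by itself was not searched. None of the 28 genes had TCAAGGTCA or the DR1. The sequence of Acadm is shown because it carries the match, and is the 250 bases before the start on the minus strand of GRCm38.p6 (chr3:153944644-153944893, RefSeq), 5′ to 3′, with the match at −249 in capitals, where it reads on the opposite strand. A match of letters is a description and no binding was measured.
Acadm: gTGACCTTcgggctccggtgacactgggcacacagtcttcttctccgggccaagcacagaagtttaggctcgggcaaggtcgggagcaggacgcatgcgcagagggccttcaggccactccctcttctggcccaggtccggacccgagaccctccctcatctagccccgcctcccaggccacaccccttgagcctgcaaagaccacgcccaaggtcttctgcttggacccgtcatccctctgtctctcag

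The later steps of the spiral held the deepest fall among the oxidation enzymes. Acaa2, the mitochondrial 3-ketoacyl-CoA thiolase (chromosome 18, 74779197 to 74806208), had 386, 394 and 349 RPKM in Ctrl and 45.3, 65.3 and 56.3 in icKO. Its mean fell by 85.2%. Its log2 fold change was −2.77 (SE 0.126, adjusted p = 3.66e-07). Hadh, the short-chain 3-hydroxyacyl-CoA dehydrogenase, had 217, 230 and 215 RPKM in Ctrl and 41.5, 60.5 and 57.9 in icKO. It fell by 2.07 on the log2 scale (SE 0.134, adjusted p = 1.62e-06). Echs1, the short-chain enoyl-CoA hydratase, fell from 134 ± 6.79 to 55.5 ± 7.37 RPKM (SD, n = 3). Hadha and Hadhb encode the α and β subunits of the membrane-bound trifunctional protein, which handles long chains, and fell by 1.01 and 0.84 on the log2 scale. The soluble enzymes Hadh and Acaa2 thus had larger log2 fold changes than the trifunctional protein subunits, a difference that was not tested. Hadha overlaps Garem2 and Echs1 overlaps Paox in the annotation.

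The auxiliary enzymes for unsaturated chains all fell. Ech1, a dienoyl-CoA isomerase, had 563, 548 and 480 RPKM in Ctrl and 168, 199 and 190 in icKO, with a log2 fold change of −1.51 (SE 0.0942, adjusted p = 1.33e-06). Eci1, the mitochondrial enoyl-CoA isomerase, had 134, 142 and 137 RPKM in Ctrl and 54.0, 67.8 and 56.3 in icKO, and fell by 1.22 (SE 0.0953, adjusted p = 4.44e-06). Eci2, a second enoyl-CoA isomerase, fell by 0.74 and Decr1, the 2,4-dienoyl-CoA reductase, by 0.57 on the log2 scale. In all 4 genes every icKO sample was below every Ctrl sample.

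Electrons from the acyl-CoA dehydrogenases pass through the electron transfer flavoprotein, encoded by Etfa and Etfb, to its ubiquinone oxidoreductase, encoded by Etfdh. Etfdh had 244, 219 and 215 RPKM in Ctrl and 72.2, 98.4 and 70.5 in icKO. Its log2 fold change was −1.504 (SE 0.128, adjusted p = 7.16e-06). Etfa fell from 247 ± 14.2 to 135 ± 13.1 RPKM and Etfb from 341 ± 30.5 to 168 ± 16.1 RPKM (SD, n = 3). The 3 genes had no overlap between groups, and the annotation places other coding genes over Etfb (Gm45233) and Etfdh (4930579G24Rik).

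Of the other thiolases, Acat1, which makes and uses acetoacetyl-CoA in mitochondria, fell from 121 ± 4.34 to 55.5 ± 9.96 RPKM (SD, n = 3), with a log2 fold change of −1.14 (adjusted p = 3.57e-05). Acaa1a, the peroxisomal thiolase, had 11.99, 14.1 and 12.8 RPKM in Ctrl and 10.3, 11.7 and 10.4 in icKO. The groups of Acaa1a lay close together without overlapping, and its log2 fold change of −0.26 (adjusted p = 0.0345) lost its call in 4 of the 6 fits that left out a library (without Ctrl replicates 2 or 3 or icKO replicates 1 or 3). Acaa1a has a near-identical copy, Acaa1b, and overlaps Myd88 and Slc22a14, so its reads are less certain.

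The deepest falls of all 35 genes were in Ucp3 and Plin5. Ucp3, the uncoupling protein of muscle mitochondria (chromosome 7 of GRCm38, 100472990 to 100486432), had 30.9, 41.8 and 26.3 RPKM in Ctrl and 1.14, 4.51 and 1.60 in icKO. It fell by 3.93 on the log2 scale (SE 0.417, adjusted p = 2.68e-05), and its mean fell by 92.7%. Plin5, which coats the lipid droplets that feed mitochondria, had 74.4, 72.9 and 52.9 RPKM in Ctrl and 5.53, 11.1 and 7.80 in icKO. Its log2 fold change was −3.06 (SE 0.232, adjusted p = 3.65e-06). Pdk4, the pyruvate dehydrogenase kinase that spares glucose when fat is burnt, had 393, 590 and 279 RPKM in Ctrl and 66.4, 112 and 61.4 in icKO. The Ctrl samples of Pdk4 spread more than those of most members (421 ± 157 RPKM, SD, n = 3), and it still fell by 2.38 (SE 0.288, adjusted p = 6.09e-05).

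Ucp2, whose protein is widespread outside muscle, moved the other way. It had 8.37, 8.31 and 11.6 RPKM in Ctrl and 50.5, 29.8 and 44.8 in icKO, and each icKO sample was above each Ctrl sample. Ucp2 rose by 2.12 on the log2 scale (SE 0.202, adjusted p = 1.37e-05), and by 1.55 after median-ratio scaling. The mean ratio of icKO to Ctrl was 4.42. Summed macrophage markers also differed between these libraries, at 2.99 to 4.81 RPKM in Ctrl and 7.14 to 10.52 in icKO, as did the fibroblast markers given above, and their part in the Ucp2 values was not tested. The Ucp2 locus overlaps Dnajb13 in the annotation.

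Ucp3 and Ucp2 are neighbours on the plus strand of chromosome 7, with 6904 bases between the end of Ucp3 and the start of Ucp2. The 250 bases before each RefSeq start are shown side by side because the 2 genes lie together and moved in opposite directions. They are from RefSeq on GRCm38.p6, chr7:100472741-100472990 for Ucp3 and chr7:100493108-100493357 for Ucp2, both on the plus strand, 5′ to 3′. No capitals are used, since neither held a match to AAGGTCA, TCAAGGTCA or the DR1. The AGGTCA half-site by itself was not searched, and it does occur in the Ucp3 sequence.
Ucp3: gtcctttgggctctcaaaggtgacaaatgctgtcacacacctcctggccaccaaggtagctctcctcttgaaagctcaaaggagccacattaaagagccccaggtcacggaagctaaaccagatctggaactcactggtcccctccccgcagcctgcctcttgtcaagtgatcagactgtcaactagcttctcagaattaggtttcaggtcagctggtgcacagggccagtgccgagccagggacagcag
Ucp2: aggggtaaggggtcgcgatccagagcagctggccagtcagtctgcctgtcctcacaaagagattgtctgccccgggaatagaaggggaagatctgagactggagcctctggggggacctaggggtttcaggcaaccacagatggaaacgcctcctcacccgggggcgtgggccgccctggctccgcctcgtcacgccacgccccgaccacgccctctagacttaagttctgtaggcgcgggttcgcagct

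The remaining regulators were lower or did not pass. Mlycd, which degrades malonyl-CoA and so relieves the block on carnitine palmitoyltransferase 1, fell from 37.2 ± 6.51 to 20.8 ± 3.20 RPKM (SD, n = 3), a log2 fold change of −0.83 (adjusted p = 0.000615). Acot2, a mitochondrial thioesterase, had 30.9, 32.2 and 27.2 RPKM in Ctrl and 15.4, 29.1 and 10.46 in icKO, so that icKO replicate 2 lay within the Ctrl range. Its log2 fold change of −0.84 (adjusted p = 0.0290) lost its call in 4 of the 6 fits that left out a library (without Ctrl replicates 1 or 2 or icKO replicates 1 or 3), and reads may be shared with its near-identical copy Acot1. Acot13, another thioesterase, had 201, 176 and 183 RPKM in Ctrl and 206, 209 and 203 in icKO. The icKO samples of Acot13 were all above Ctrl with the deposited RPKM (log2 fold change 0.15, adjusted p = 0.102), but median-ratio scaling gave −0.42 (adjusted p = 0.000987).

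**Figure D2:**
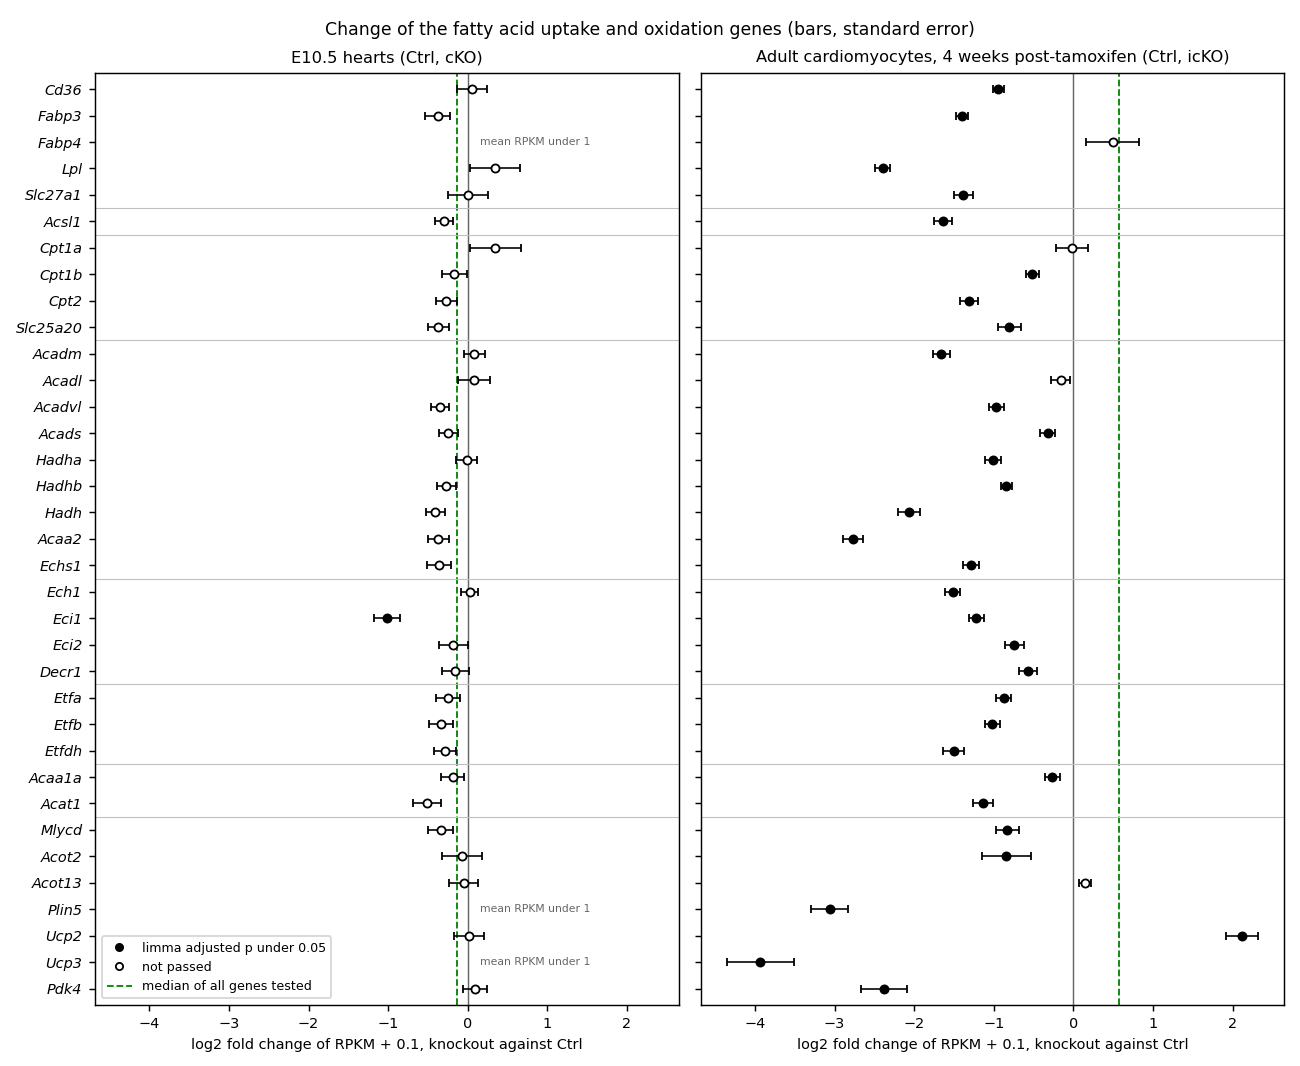
Log2 fold change of RPKM + 0.1, knockout against Ctrl, for each gene at E10.5 (left) and in adult cardiomyocytes (right), with bars of 1 standard error. Filled points passed at a adjusted p under 0.05, and the dashed line is the median of all genes tested (−0.13 at E10.5 and 0.57 in adults). At E10.5 Eci1 alone is filled, whereas 31 of 35 points are filled in adults.

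Together the 35 genes held 3.89%, 3.93% and 3.57% of the summed RPKM in the adult Ctrl libraries and 1.49%, 1.70% and 1.61% in the icKO libraries. The 5 uptake genes alone took 1.23% to 1.33% in Ctrl and 0.398% to 0.440% in icKO, and the 9 genes of the spiral 1.07% to 1.17% and 0.486% to 0.576%. The carnitine shuttle took 0.157% to 0.168% in Ctrl and 0.0941% to 0.110% in icKO. Of the icKO libraries, replicate 2 was the highest in 29 of the 35 genes, and Med30 was highest in replicate 1. Replicate 2 also had the highest summed RPKM of cardiomyocyte markers (10220, against 7849 and 8874 in replicates 1 and 3). Of the Ctrl libraries, replicate 3 was the lowest in 25 of the 35, and its cardiomyocyte markers were the highest (20270, against 19630 and 19450). The part of these markers and of Med30 in the rankings was not tested. With each library left out in turn, 27 (without Ctrl replicate 2) to 31 genes (without icKO replicate 2) passed as lower, and 15 (without icKO replicate 1) to 20 genes (without icKO replicate 2) were beyond a log2 fold change of 1. Groups did not overlap, with icKO lower, in 29 of the 35 genes (82.9%), against 18.9% of all genes tested.

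**Figure D3:**
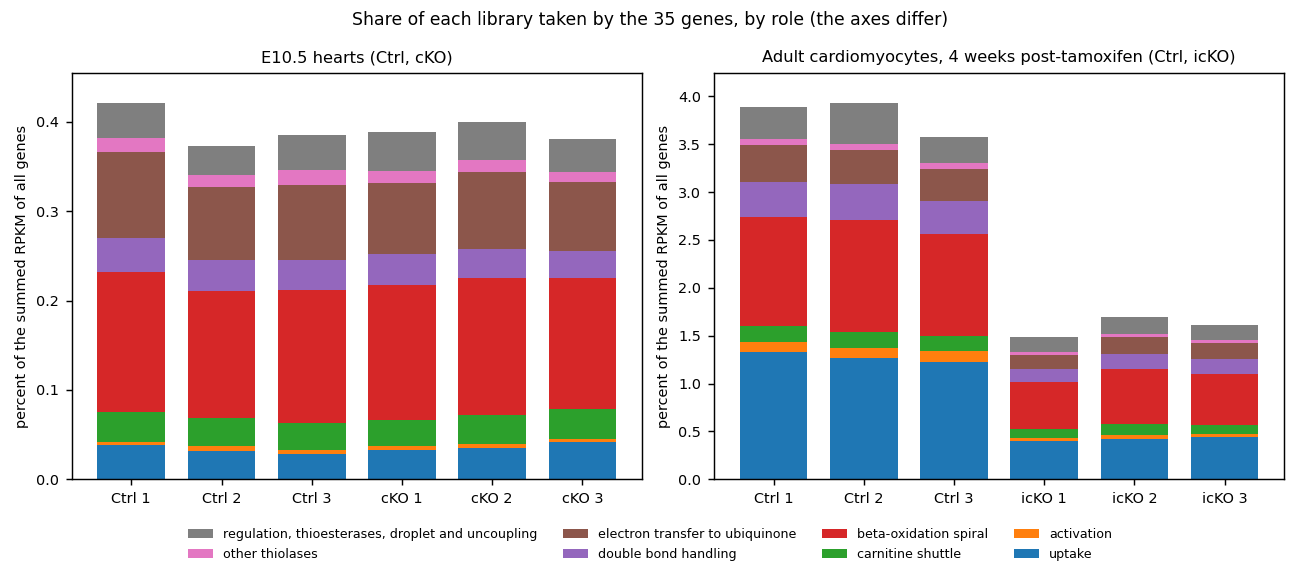
Share of the summed RPKM of all genes held by the 35 genes in each library, stacked by role, with E10.5 hearts on the left and adult cardiomyocytes on the right (the 2 vertical axes differ). In adults the Ctrl bars reach 3.57% to 3.93% and the icKO bars 1.49% to 1.70%, and the E10.5 bars lie between 0.373% and 0.421% in both groups.

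At E10.5, 1 of these genes passed the test. Fabp4, Plin5 and Ucp3 had a mean RPKM under 1 and were not tested. Of the 32 genes tested, Eci1 passed as lower (1 gene, 3.12%), against 3.45% of the 10885 genes tested, so the share of members was near that of all genes, and none passed as higher, against 0.864% of all genes. At an unadjusted p under 0.05 the count, in either direction, was 11 genes (34.4%, against 23.6% of all genes), and 6 genes after median-ratio scaling (18.8%, against 23.3%). The log2 fold change was below 0 in 23 genes and above 0 in 9, with a median of −0.22 against −0.13 over all genes. With the other 3 scalings (median-ratio, quantile, and one that leaves out the 20 most abundant genes), 20, 20 and 18 genes were below 0. Over all genes the calls were 376 lower and 94 higher as deposited and 279 lower and 271 higher after median-ratio scaling, where the median of all genes was −0.01. In 12 of the 32 genes all cKO samples were below all Ctrl samples (37.5%), against 22.6% of all genes. Ctrl replicate 1 was the highest of the Ctrl libraries in 24 of the 32 genes and Ctrl replicate 2 the lowest in 24. Summed cardiomyocyte markers were also highest in Ctrl replicate 1 (6746 RPKM) and lowest in Ctrl replicate 2 (4150 RPKM) of the Ctrl libraries. The 8 cardiomyocyte markers had a median log2 fold change of −0.35 at this stage with none passing, 3 of them at an unadjusted p under 0.05. The summed RPKM of 6 erythroid markers was 160 to 487 in Ctrl and 220 to 1398 in cKO libraries, and the part of either list in these results was not tested.

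Eci1 (chromosome 17 of GRCm38, 24426641 to 24439348) was the gene that passed at E10.5. It had 27.0, 20.1 and 19.0 RPKM in Ctrl and 11.0, 8.97 and 12.4 in cKO hearts, with every cKO sample below every Ctrl sample. Its log2 fold change was −1.02 (SE 0.164, adjusted p = 0.0204), and its mean fell by 51.1%. The call was lost without Ctrl replicate 3, without cKO replicate 1 and without cKO replicate 2, and the adjusted p ranged from 0.00672 to 0.0615 over the alternatives, while the log2 fold change stayed between −1.12 and −0.85. Acat1, which had 23.6, 15.4 and 24.0 RPKM in Ctrl and 15.6, 15.1 and 12.7 in cKO, did not pass (log2 fold change −0.51, adjusted p = 0.119) but did so without Ctrl replicate 2 (adjusted p = 0.0373).

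The genes with the deepest adult falls did not pass in the embryo or were left out there by the RPKM filter. Lpl had 22.9, 13.5 and 14.3 RPKM in E10.5 Ctrl and 15.0, 16.4 and 36.4 in cKO hearts, with a log2 fold change of 0.34 (SE 0.317, adjusted p = 0.549) that became −0.06 without cKO replicate 3. Pdk4 had 3.74, 3.86 and 3.41 RPKM in Ctrl and 3.58, 4.48 and 3.70 in cKO. Ucp3 was listed at 0 in Ctrl replicate 2 and cKO replicates 2 and 3 and reached at most 0.061 RPKM elsewhere. That is at or under the 0.0615 RPKM or more that 3 reads give for this gene. Plin5 had 0.130 to 0.288 RPKM in Ctrl and 0.038 to 0.412 in cKO. Hadh and Acaa2 had log2 fold changes of −0.41 (adjusted p = 0.0806) and −0.37 (adjusted p = 0.141), and in both all cKO samples were below all Ctrl samples. Acadm, at 28.9 ± 4.43 RPKM in Ctrl and 30.4 ± 2.15 in cKO (SD, n = 3), and Ucp2, at 24.6 ± 6.51 and 24.4 ± 3.90, differed by less than the spread between samples.

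The control levels are set side by side here without a test, because the 2 tables were normalized separately and whole hearts are compared with isolated cardiomyocytes. The mean Ctrl RPKM at E10.5 and in adults was 35.4 and 1384 for Fabp3, 16.9 and 1108 for Lpl, 3.67 and 421 for Pdk4, and 4.71 and 323 for Cd36. Plin5 stood at 0.234 and 66.8 RPKM and Ucp3 at 0.0287 and 33.0. Ucp2, at 24.6 and 9.43, was the 1 gene of the 35 with a higher mean in the E10.5 table. Cpt1a made up 13.4%, 6.58% and 10.6% of the summed RPKM of Cpt1a and Cpt1b in the E10.5 Ctrl libraries and 5.03%, 6.49% and 5.12% in the adult ones.

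The knockout effect itself differed between the stages for most genes. The difference of the log2 fold changes, 4 weeks minus E10.5, was tested with limma as a contrast over both stages together (12 samples). It passed below 0 in 21 of the 32 genes tested at both stages (65.6%), against 9.29% of the 8909 genes tested, and above 0 in 1, Ucp2, against 59.4% of all genes. The median difference was −0.65 for these genes and 0.69 for all genes. After median-ratio scaling 31 of the 32 genes passed below 0 (96.9%), against 25.7% of all genes, and Ucp2 above 0, against 27.2% of all genes, and the median of all genes was 0.02. Lpl, Pdk4 and Acaa2 had the most negative differences, −2.74 (SE 0.390), −2.47 (SE 0.349) and −2.40 (SE 0.199). Eci1 was unlike these: its falls of 1.02 and 1.22 on the log2 scale differed by −0.20 (SE 0.207, adjusted p = 0.406), which does not show that they were equal, and median-ratio scaling gave −0.88 (adjusted p = 0.000752). The log2 fold change of Med30 itself also differed between the stages, −2.96 at E10.5 and −1.40 at 4 weeks (difference 1.56, adjusted p = 0.00155, and 0.0586 after median-ratio scaling). Only the first Med30 exon is floxed and reads of its other exons may remain, so these values do not measure how complete the deletion was. Stage cannot be told apart from the Cre line and from whole heart against isolated cardiomyocytes.

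Ratios of related genes within a library do not depend on the scaling between libraries. With 3 samples against 3, the exact permutation test (two-sided) cannot give a p under 0.1, and 10 ratios were tested. In adults the log2 ratio of Ucp3 to Ucp2 was 1.87, 2.32 and 1.17 in Ctrl and −5.36, −2.70 and −4.72 in icKO, a difference of −6.05 (exact p = 0.1, adjusted 0.25). The log2 ratio of Acadl to Acadm was 0.33, 0.15 and 0.10 in Ctrl and 1.85, 1.84 and 1.39 in icKO, a difference of 1.503 (exact p = 0.1, adjusted 0.25). The log2 ratios of Fabp3 to Fabp4 and of Etfdh to Etfa differed by −1.89 and −0.63, each with no overlap between groups and the same smallest exact p. The ratio of Cpt1b to Cpt1a overlapped between the adult groups (difference −0.50, exact p = 0.2). At E10.5 the ratios of Cpt1b to Cpt1a, Acadl to Acadm and Etfdh to Etfa overlapped between groups, with exact p values from 0.2 to 0.8. Nothing is read from the E10.5 ratios with Ucp3 and Fabp4, which are set largely by the pseudocount.

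**Figure D4:**
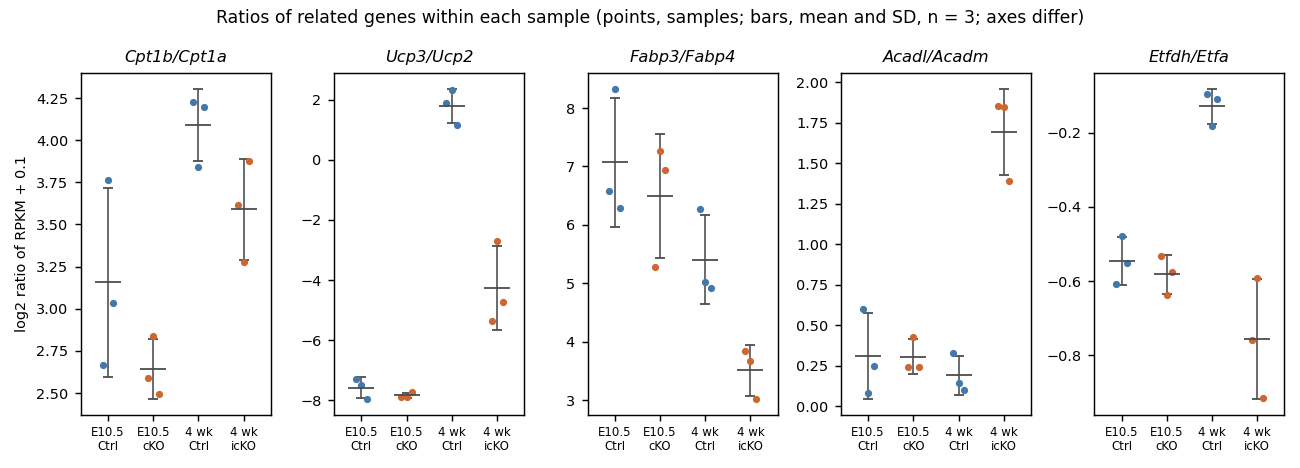
Log2 ratios of RPKM + 0.1 of related genes within each sample, for the 4 groups of 3 samples, with points for samples and bars for the mean and SD (the 5 vertical axes differ). In adults the groups separate for Ucp3/Ucp2, Fabp3/Fabp4, Acadl/Acadm and Etfdh/Etfa and overlap for Cpt1b/Cpt1a, and at E10.5 the groups overlap in all 5 panels, where the ratios with Ucp3 and Fabp4 are set largely by the pseudocount.

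Other genes of lipid metabolism were counted on lists of 100 genes, of which 99 were in the tables. In adults 81 were tested, and 46 passed as lower (56.8%, against 18.1% of all genes), 22 as higher (27.2%, against 60.6%) and 13 did not pass. After median-ratio scaling 57 passed as lower (70.4%, against 34.6% of all genes) and 11 as higher (13.6%, against 33.6%). Counts of the single lists below are to be read against the same shares. On the list of other carnitine genes, 4 were tested. With the deposited RPKM 3 passed as lower and 1 as higher, and 3 and 0 after median-ratio scaling. Slc22a5, the plasma membrane carnitine transporter, fell by 1.95 on the log2 scale and Crat, carnitine acetyltransferase, by 0.71. Slc25a29, another carrier of the inner membrane, fell by 0.73. Crot, the peroxisomal carnitine octanoyltransferase, was at 0.39 with the deposited RPKM (adjusted p = 0.0147) but at −0.17 after median-ratio scaling. Of the other uptake and activation genes, 10 were tested and passed in both directions. With the deposited RPKM 4 passed as lower and 5 as higher, and 5 and 4 after median-ratio scaling. Their acyl-CoA synthetases split, with Acsl6 falling by 2.97 and Acsl4 rising by 2.64. Acss1, the mitochondrial acetyl-CoA synthetase, fell by 2.03 and Angptl4, the secreted inhibitor of lipoprotein lipase, by 1.97. The groups of Angptl4 overlapped, at 1.352, 5.32 and 5.57 RPKM in Ctrl and 0.653, 1.381 and 0.57 in icKO. On the list of 14 other genes of mitochondrial oxidation, 12 were tested and 9 passed as lower and 2 as higher, and 10 and 0 after median-ratio scaling. Pccb and Pcca, the subunits of propionyl-CoA carboxylase, fell by 1.70 and 0.94, and Mmut, methylmalonyl-CoA mutase, fell by 0.93.

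Storage, synthesis and peroxisomal genes passed in both directions under either scaling. Of 14 triglyceride and lipid droplet genes tested, 8 passed as lower and 5 as higher, and 8 and 2 after median-ratio scaling. G0s2, an inhibitor of adipose triglyceride lipase, had 6.10, 9.24 and 16.9 RPKM in Ctrl and 0.632, 0.638 and 1.29 in icKO, and the triglyceride synthesis genes Lpin1, Gpam and Dgat2 fell by 2.14, 2.03 and 1.84 on the log2 scale. Acacb, the acetyl-CoA carboxylase that makes malonyl-CoA at the outer mitochondrial membrane, fell by 1.35, whereas Acly and Fasn, of cytosolic fatty acid synthesis, rose by 1.63 and 1.27. Of 11 peroxisomal genes tested, 5 passed as lower, among them Ehhadh and Hsd17b4 with falls of 1.69 and 1.18, and 3 as higher, among them Hacl1 and Acox3 with log2 fold changes of 1.40 and 1.26. After median-ratio scaling 8 peroxisomal genes passed as lower and 2 as higher. Oxct1, which starts the use of ketone bodies, fell by 0.82. Of the other thioesterases and pyruvate dehydrogenase regulators, Acot11 fell by 3.28, Pdp2 by 2.93 and Acot1 by 2.82, and Acot9 rose by 3.05, from 6.21, 6.91 and 6.59 RPKM in Ctrl to 58.4, 58.1 and 49.3 in icKO.

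Of 12 regulators of the pathway tested in adults, 7 passed as lower and 3 as higher with the deposited RPKM, and 10 as lower and 0 as higher after median-ratio scaling. Ppara had 16.5, 15.2 and 17.2 RPKM in Ctrl and 2.59, 3.92 and 3.45 in icKO cardiomyocytes (log2 fold change −2.28, adjusted p = 1.63e-06). Ppargc1a, which encodes PGC-1α, had 21.2, 22.7 and 27.4 RPKM in Ctrl and 6.26, 5.96 and 6.53 in icKO (log2 fold change −1.90, adjusted p = 9.58e-07), and Ppargc1b fell by 3.38. Esrra and Esrrg, for ERRα and ERRγ, fell by 0.73 and 0.63. Pparg, at 0.469 to 0.993 RPKM in Ctrl and 1.18 to 2.35 in icKO, was higher with the deposited RPKM (log2 fold change 1.19, adjusted p = 0.00923) and did not pass after median-ratio scaling (adjusted p = 0.113).

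At E10.5, 77 genes of these lists were tested, 5 passed as lower (6.49%, against 3.45% of all genes) and none as higher (against 0.864%). They were Acsl5, a long-chain acyl-CoA synthetase (log2 fold change −0.63, adjusted p = 0.0291), Etfrf1, a regulator of the electron transfer flavoprotein (−0.97, adjusted p = 0.0398), Hsd17b4, the peroxisomal multifunctional enzyme (−0.54, adjusted p = 0.0427), Pdk1 (−0.82, adjusted p = 0.0275) and Esrrg (−0.70, adjusted p = 0.0328). All 5 calls depended on the libraries included: Acsl5 lost its call in 4 of the 6 fits that left out 1 library and each of the others in 5. Over all 15 alternatives, the call was lost in 6 for Acsl5, 7 for Etfrf1, 9 each for Hsd17b4 and Pdk1 and 10 for Esrrg. For Esrrg these included median-ratio scaling (adjusted p = 0.0513). Ppargc1a and Esrra had log2 fold changes of −0.17 and −0.05 at E10.5, of which Esrra became 0.07 after median-ratio scaling, and Ppara, at 0.118 to 0.343 RPKM, was not tested. The difference between stages passed for Ppargc1a (−1.74, SE 0.183, adjusted p = 3.39e-06) and Esrra (−0.68, SE 0.140, adjusted p = 0.000761).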

How the data were processed

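RNA was extracted with Trizol, and libraries were made after ribosomal RNA depletion. The authors mapped reads to GRCm38/mm10, counted them and deposited RPKM for each gene and sample. Their processing notes list cutadapt 2.6, STAR 2.5.3a, HOMER 4.11.1 and DESeq2 1.12.4. The annotation, the strand setting of the counting and the scaling total are not given in the sources used here. Columns of the authors' log2 fold changes, adjusted p values and mean RPKM were not used. Depth was estimated from the spacing of low RPKM (50.1% to 54.6% within 0.1 of a whole read, 20% by chance), and since fewer than nearly all values came out whole, no count test was run. Floors of 3 reads cover counting error only.

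Each stage was fitted alone with limma 3.58.1 under R 4.3.3 (lmFit, eBayes with trend) on log2(RPKM + 0.1). Only genes whose mean RPKM exceeded 1 entered, with Benjamini-Hochberg adjustment over all genes tested. The fits were tested on simulated data. Within-library ratios were tested by exact permutation (scipy 1.17.1). Named genes are all 35 members, Med30, Ppara, Ppargc1a, Esrra, Esrrg and at most 4 genes per other list and stage with the largest change among those that passed. Members and lists were chosen with earlier results of these data known. The alternatives tried were a pseudocount of 1 or 0.01, a minimum mean RPKM of 5 or none, 3 other scalings, eBayes without trend, a block for replicate number, and leaving out each replicate in turn. Of 35 members, 28 matched a RefSeq promoter window.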

Additional observations from a re-analysis of the deposited data

Results flagged for a closer look

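For 22 genes the knockout effect in adult cardiomyocytes differed from that in E10.5 hearts by a test of the difference itself (limma contrast, adjusted p under 0.05). Each value is the log2 fold change at 4 weeks minus that at E10.5. Among the uptake and activation genes it was −0.99 for Cd36, −1.02 for Fabp3, −2.74 for Lpl, −1.38 for Slc27a1 and −1.33 for Acsl1, and for Cpt2 of the carnitine shuttle it was −1.04. In the β-oxidation spiral it was −1.74 for Acadm, −0.62 for Acadvl, −1.0 for Hadha, −0.58 for Hadhb, −1.66 for Hadh, −2.40 for Acaa2 and −0.92 for Echs1. It was −1.54 for Ech1, −0.56 for Eci2, −0.63 for Etfa, −0.68 for Etfb, −1.22 for Etfdh, −0.63 for Acat1, −0.49 for Mlycd and −2.47 for Pdk4. Ucp2 alone was above 0, at 2.10. The calls of Eci2 and Mlycd were each lost in 12 alternatives and that of Acat1 in 6, while scaling changed no sign among the 22. Groups of 3 samples were not tested for outlying libraries.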

How the results depend on the processing

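In adults, all 18 genes beyond a log2 fold change of 1 in the downward direction and Ucp2 passed under every alternative, and calls lost among the 31 were those of Acaa1a, Acot2 and Acads. Median-ratio scaling brought the genes beyond 1 in the downward direction from 18 to 28, and quantile normalization brought the genes passing as higher from 1 to 2 (Acot13). At E10.5 the count passing as lower was 0 with eBayes without trend (8 at an unadjusted p under 0.05, or 25.0%, against 22.4% of all genes) and 0 to 2 with a replicate left out. The count beyond 1 was 0 with a pseudocount of 1, with median-ratio, quantile or top-20-free scaling (the 20 most abundant genes left out) and with eBayes without trend, and 0 to 1 with a replicate left out. The cause was not tested.

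Signs turned as follows. With median-ratio scaling, quantile normalization and scaling without the 20 most abundant genes, the E10.5 log2 fold changes were 0.11, 0.14 and 0.16 for Hadha, 0.045, 0.044 and 0.097 for Acot2, 0.071, 0.10 and 0.12 for Acot13 and 0.070, 0.057 and 0.12 for Esrra. Scaling without the 20 most abundant genes gave 0.0061 for Cpt1b, 0.016 for Decr1 and 0.0043 for Ppargc1a, and a pseudocount of 1 gave −0.000609 for Slc27a1. In adults, median-ratio scaling gave −0.072 for Fabp4, −0.42 for Acot13 and −0.17 for Crot, quantile normalization gave 0.099 for Acadl and −0.18 for Crot, and scaling without the 20 most abundant genes gave −0.097 for Acot13. With a replicate left out, E10.5 values ran from −0.076 to 0.23 for Cd36, −0.064 to 0.58 for Lpl, −0.065 to 0.089 for Slc27a1, −0.046 to 0.18 for Acadm, −0.16 to 0.32 for Acadl, −0.098 to 0.10 for Hadha, −0.024 to 0.086 for Ech1, −0.28 to 0.025 for Decr1, −0.31 to 0.12 for Acot2, −0.19 to 0.17 for Acot13, −0.20 to 0.20 for Ucp2, −0.0089 to 0.15 for Pdk4 and −0.14 to 0.0045 for Esrra, and adult Cpt1a ran from −0.24 to 0.17. The E10.5 difference between cKO and Ctrl in the log2 ratio of Ucp3 to Ucp2 moved from −0.25 to −0.99 with a pseudocount of 0.01.

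Samples with the same number share only the number: the correlations of their deviations were 0.0124, 0.101 and −0.0698 at E10.5 and 0.153, 0.0433 and 0.0450 at 4 weeks. With the replicate number as a block, 1 gene passed as lower at E10.5, and 30 passed as lower and 2 as higher (Ucp2 and Fabp4) at 4 weeks. Depth limits Ucp3 at E10.5, which was at or under the floor of 3 reads in every library. Plin5 and Fabp4 were left out at E10.5 by the RPKM filter. Without the filter all 35 genes entered and 1 passed as lower.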
